A study of Mus musculus with 26 samples.

Results

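Gene expression was compared in adipocytes of mice on diets of different fat content, using 6 RNA-seq libraries, 3 of mice on a high fat diet (HFD) and 3 of mice on a low fat diet (LFD), of the 15 libraries in the count tables whose names give their group. The libraries were chosen by the diet group in their column names. They are called HFD a, b and c and LFD a, b and c here, in the order of the table, and values follow this order. All mice were male wild type C57BL/6J animals, 9 to 10 weeks old at the start, and were fed for 12 weeks on a diet with 60% fat (HFD) or 10% fat (LFD). Adipocytes came from digested epididymal fat and were the cells that float after centrifugation, while the stromal vascular cells (SVC) are those that sediment. Formerly obese mice (SW), which had 9 weeks of HFD and then 3 weeks of LFD, entered only to estimate the spread between replicates and to place genes between the fractions. The columns are tied to a diet group but not to a single labelled sample, and nothing says how many animals gave each library, so p-values measure only the spread between these libraries.

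A white adipocyte stores triglyceride in a large droplet, makes fatty acids from glucose when insulin is high, releases them under adrenergic signals, and secretes hormones such as adiponectin and leptin. In obesity, macrophages gather around enlarged and dying adipocytes, take up their lipid into lysosomes and can stay attached to floating cells. A fraction of floating cells can therefore hold RNA of both, and its RNA is best read by groups of genes with known homes.

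The 6 libraries held between 6142895 and 23725647 counts, and 2 of the 3 LFD libraries were the smallest, with 6142895 and 7510142. Values are given as CPM, counts scaled to a common library size with TMM factors, and a count of 0 allows up to 3 counts, or 0.126 to 0.488 CPM depending on the library. All 8 adipocyte markers that were checked (Adipoq, Plin1, Cidec, Fabp4, Lipe, Pparg, Cfd and Lep) were expressed in each library and lay on the adipocyte side of the SW fractions, with log2 differences between SVC and adipocytes of -6.08 to -2.32. The label of the cells was thus met by their markers. Macrophage RNA was present too: the 20 macrophage markers, including Ptprc (CD45) and Csf1r, summed to 11008 to 13022 CPM in HFD and 966 to 1609 CPM in LFD libraries, and none of the 20 was at 0 in any of the 6. Mitochondrial transcripts made up 8.4% to 11.8% of the HFD and 10.6% to 13.8% of the LFD counts.

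Of 14461 genes tested, 7448 (51.5%) passed an adjusted p of 0.05 between HFD and LFD adipocytes in the quasi-likelihood fit of edgeR (Benjamini-Hochberg). Higher in HFD were 3836 genes (26.5%) and lower 3612 (25%), and the median log2 fold change of all genes was -0.03. These shares are the background against which each gene list below should be read. In an alternative chosen after seeing the data, the libraries were scaled on adipocyte-side genes alone, which are defined below. This takes those genes as unchanged on average, although their median was -0.23 in the main fit, so an upward shift was built in. The median of all genes was then 0.18, with 4999 genes higher and 2373 lower. Of the genes past the threshold 67.8% were higher, against 51.5% in the main fit. Without 1 library, list counts of 4 or fewer moved by at most 3, and larger counts are given below where they moved by over 1.5 times. The 3 HFD libraries lay above all 3 LFD libraries for 32.1% of the genes tested and below them for 30.5%. With 3 against 3 libraries an exact permutation test cannot give a two-sided p under 0.1, so single genes were judged by the fit across all genes. In bulk RNA, fewer cells of a type and less RNA per cell cannot be told apart.

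Among genes whose average log2 CPM over the 6 libraries (in edgeR close to the log2 of the mean CPM, so that 1 group can carry it) was 5 or more, 1635 of 5332 were higher (30.7%) and 1338 lower (25.1%). The 10 largest rises include several receptors and enzymes known from myeloid cells. This describes the genes and not the measured source of their RNA, and their sides in SW mice are given below. Cd300lh, a receptor of the CD300 family, measured 87.7, 67.5 and 93.8 CPM in HFD and 3.17, 0.877 and 0.264 CPM in LFD libraries (log2 fold change 6.06 ± 0.60, adjusted p = 4.09e-05). Gpnmb, a membrane glycoprotein of lipid-laden macrophages, measured 2784, 1975 and 2794 CPM in HFD and 101, 39.8 and 23.2 CPM in LFD libraries (log2 fold change 5.54 ± 0.51, adjusted p = 2.66e-05). Spp1, which encodes the matrix protein osteopontin, measured 162, 104 and 139.8 CPM in HFD and 3.33, 4.49 and 2.11 CPM in LFD libraries (log2 fold change 5.27 ± 0.29, adjusted p = 6.26e-06). For these genes the HFD libraries were near each other and far above the LFD libraries, of which LFD a was highest for Cd300lh and Gpnmb but not for Spp1.

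The other large rises were Pik3ap1, an adaptor for PI3-kinase in leukocytes (6.03 ± 0.62 on the log2 scale), Rgs1, a regulator of G-protein signalling (5.77 ± 0.52), Adam8, a membrane protease of leukocytes (5.11 ± 0.42), and Cd180, a receptor related to the toll-like receptors (4.98 ± 0.31). Zranb3, a helicase that acts at stalled replication forks, measured 153, 98.8 and 127 CPM in HFD and 5.07, 2.48 and 2.24 CPM in LFD libraries (5.36 ± 0.30 on the log2 scale). Hpgds, the hematopoietic prostaglandin D synthase, rose by 5.10 ± 0.30 and Slc37a2, a sugar-phosphate transporter found in macrophages, by 4.95 ± 0.32 on the log2 scale. These genes met the minimum mean level mainly through the HFD libraries: their LFD means ran from 1.24 CPM (Pik3ap1) to 54.6 CPM (Gpnmb), so the order of their folds is imprecise.

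The 10 largest falls include secreted proteins, a receptor and enzymes. Cfd, which encodes the complement protease adipsin, measured 277, 439 and 199 CPM in HFD and 2716, 5995 and 10846 CPM in LFD libraries (log2 fold change -4.42 ± 0.52, adjusted p = 0.000106), a 21.4-fold fall. Retn, the hormone resistin, measured 195, 338 and 163 CPM in HFD and 1703, 2039 and 2348 CPM in LFD libraries (log2 fold change -3.13 ± 0.29, adjusted p = 2.66e-05). Adrb3, the beta-3 adrenergic receptor through which noradrenaline starts lipolysis, measured 35.8, 71.9 and 31.0 CPM in HFD and 329, 397 and 628 CPM in LFD libraries (log2 fold change -3.28 ± 0.38, adjusted p = 9.31e-05). For Retn and Adrb3 the highest HFD library was HFD b, and it still lay well below the lowest LFD library.

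Cyp2e1, a cytochrome P450 of small-molecule oxidation, measured 79.8, 171 and 42.9 CPM in HFD and 1507, 1589.9 and 2078 CPM in LFD libraries (-4.14 ± 0.54 on the log2 scale). Timp4, an inhibitor of matrix proteases (-3.37 ± 0.30), Thrsp, an inducer of fatty acid synthesis (-2.90 ± 0.30), and Agt, the precursor of angiotensin (-2.58 ± 0.32), fell as well. The glutathione transferases Gsta4 (-3.97 ± 0.46) and Gsta3 (-2.67 ± 0.22) and the lymphoid chemokine Ccl21a (-2.79 ± 0.45) complete the set. Gsta3, Gsta4 and Ccl21a, like Cd300lh above and the mast cell proteases, globins and H2 genes below, have close paralogs between which reads are divided, so their values are uncertain.

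To see in which fraction of formerly obese mice the changed genes were found, SVC and adipocyte libraries of SW mice were compared. These share no library with HFD or LFD mice, and the fractions of lean mice were not compared. Of 14210 genes tested, 1672 (11.8%) were SVC-side, at least 4-fold higher in SVC with an adjusted p under 0.05, and 2034 (14.3%) were adipocyte-side by the same rule in the other direction. In HFD against LFD adipocytes, 44.1% of the SVC-side genes tested were higher and 12.5% lower, with a median log2 fold change of 0.43. Of the adipocyte-side genes 15.4% were higher and 34.5% lower, with a median of -0.23. Genes on neither side were near the background, with 27.1% higher and 24.3% lower.

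Read the other way, 1296 of the 14461 genes tested between HFD and LFD adipocytes were SVC-side and 2034 adipocyte-side. The other SVC-side genes did not pass the count filter in the adipocyte libraries. Beside this background, 14.9% of the genes that rose were SVC-side and 8.19% adipocyte-side. Of those that fell, 4.49% were SVC-side and 19.4% adipocyte-side. Without 1 of the SVC libraries 13% of the genes that rose were adipocyte-side, and among genes of average log2 CPM 5 or more, 1.69% of those that fell were SVC-side. With sides set at a log2 difference of 1, 34.9% of the genes that rose were SVC-side and 24.5% adipocyte-side, and 14.1% of those that fell were SVC-side and 35.7% adipocyte-side. Of 797 genes that rose at least 4-fold, 156 were SVC-side and 15 adipocyte-side, and of 373 that fell at least 4-fold, 27 were SVC-side and 111 adipocyte-side. Among the largest rises named above, 3 were SVC-side (Cd300lh, Pik3ap1 and Gpnmb), 2 adipocyte-side (Spp1 and Hpgds) and 5 on neither side. Among the largest falls named above, 1 was SVC-side, 6 were adipocyte-side and 3 lay on neither side. The split has a further limit, since SW adipocyte libraries also held macrophage RNA: only 5 of the 20 macrophage markers were called SVC-side, and in 5 the SVC and the adipocyte libraries were within 1 of each other on the log2 scale. A gene on neither side may thus still be a macrophage gene. So may a gene on the adipocyte side, which holds 1 of the 18 lipid-associated macrophage genes listed below (Spp1). That side also holds 2 of the 25 cytokines, toll-like receptors and inflammasome genes. The adipocyte side also holds vessel genes: of 19 endothelial markers 5 were adipocyte-side and 1 SVC-side, and these 5 all fell (Emcn, Erg, Flt1, Kdr and Sox17).

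**Figure D1:**
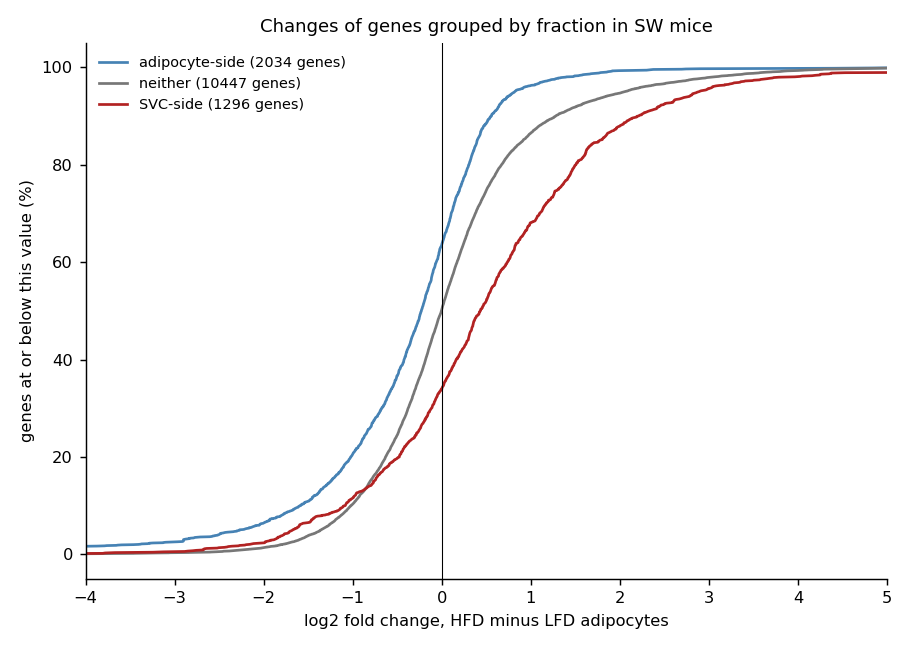
The curves give, for the 1296 SVC-side, the 10447 other and the 2034 adipocyte-side genes tested in both comparisons, the percentage of genes at or below each log2 fold change between HFD and LFD adipocytes. The SVC-side curve lies to the right, with a median of 0.43, and the adipocyte-side curve to the left, with a median of -0.23.

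**Figure D2:**
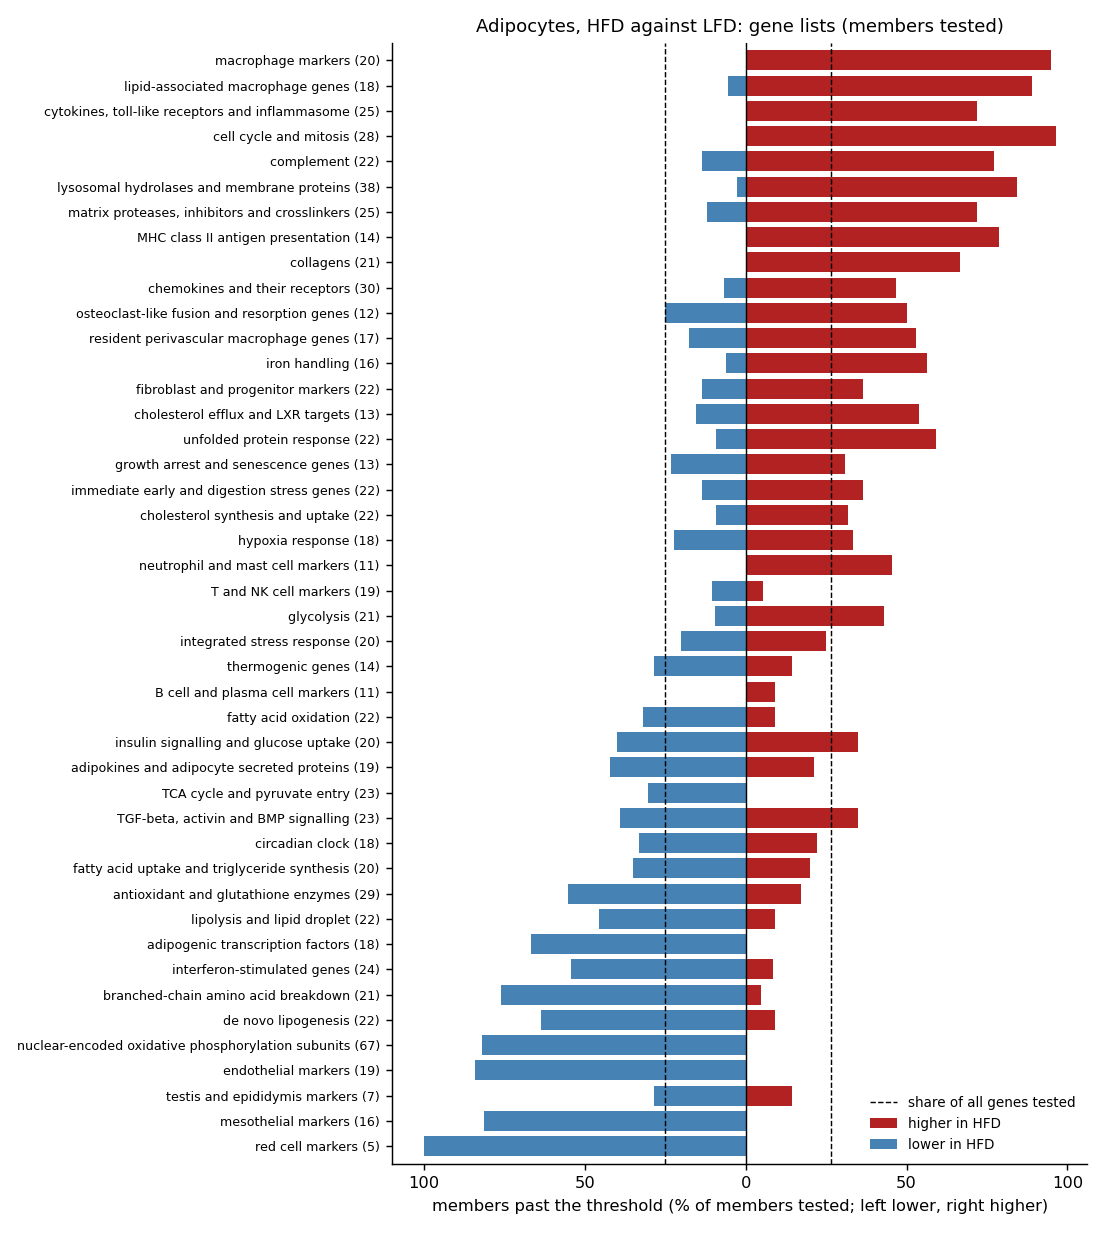
For each of 44 lists of genes, the red bar gives the percentage of members tested that were higher in HFD and the blue bar the percentage lower, with the number tested in brackets and the lists ordered by their median log2 fold change. Dashed lines mark the shares of all genes, 26.5% higher and 25% lower; macrophage, lysosomal and cell cycle lists reach far past the right line and red cell, mesothelial, endothelial and oxidative phosphorylation lists past the left one.

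The listed adipogenic transcription factors were mostly lower in HFD mice, although only 4 of them were adipocyte-side and 13 lay on neither side. Of 18 adipogenic transcription factors tested, 12 fell and 0 rose, with a median log2 fold change of -0.64 against -0.03 for all genes. Pparg, the nuclear receptor that adipocytes need for their identity, measured 112, 133 and 104 CPM in HFD and 198, 219 and 245 CPM in LFD libraries (log2 fold change -0.93 ± 0.16, adjusted p = 0.000928). Klf15, a factor that rises late in adipogenesis, measured 9.77, 12.8 and 8.003 CPM in HFD and 35.7, 46.7 and 45.2 CPM in LFD libraries (log2 fold change -2.06 ± 0.18, adjusted p = 1.94e-05), and for both genes the groups did not overlap. Cebpa, the partner of Pparg, measured 221, 345 and 293 CPM in HFD and 407.5, 403.1 and 459 CPM in LFD libraries (log2 fold change -0.56 ± 0.19, adjusted p = 0.0328), a call that was lost without HFD a, HFD c or any LFD library, with no filter, under scaling on adipocyte-side genes, and with the GC trend removed (adjusted p = 0.686). With the GC trend removed, 7 members of the list fell and 1 rose, with a median of -0.28. Under scaling on adipocyte-side genes 8 fell and 1 rose, with a median of -0.44.

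Of 22 genes of de novo lipogenesis, 14 fell and 2 rose (Fads1 and G6pdx), with a median of -0.81. Scd1, the desaturase that makes oleate, measured 5176, 10198 and 7539 CPM in HFD and 25723, 22599 and 23214 CPM in LFD libraries (log2 fold change -1.64 ± 0.28, adjusted p = 0.000955). Acaca, which makes malonyl-CoA, measured 79.3, 135 and 107 CPM in HFD and 337, 252 and 371 CPM in LFD libraries (log2 fold change -1.57 ± 0.25, adjusted p = 0.000673). Fasn, the fatty acid synthase, measured 493, 1361 and 909.7 CPM in HFD and 2409, 1799 and 1884 CPM in LFD libraries (log2 fold change -1.14 ± 0.31, adjusted p = 0.012). In all these genes HFD b was the highest of the HFD libraries and still below the LFD libraries. Thrsp and the elongase Elovl6 (log2 fold change -1.28 ± 0.18, adjusted p = 0.000291) also fell, whereas Acly, which supplies cytosolic acetyl-CoA, measured 197, 266 and 223 CPM in HFD and 338, 252 and 213 CPM in LFD libraries and did not pass (adjusted p = 0.364).

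Of 20 genes of fatty acid uptake and triglyceride synthesis 4 rose (20%) and 7 fell (35%), against 26.5% and 25% of all genes. Cd36, a fatty acid transporter of adipocytes and macrophages, measured 6515, 5514 and 5851 CPM in HFD and 3978, 3638 and 3842 CPM in LFD libraries (log2 fold change 0.64 ± 0.19, adjusted p = 0.0169), although this call was lost without HFD a or LFD b. Fabp4, the main fatty acid carrier of adipocytes, measured 7450.2, 10929 and 9249 CPM in HFD and 18294, 26825 and 25832 CPM in LFD libraries (log2 fold change -1.36 ± 0.24, adjusted p = 0.00124). Pck1, which makes glycerol for triglyceride (log2 fold change -1.98 ± 0.48, adjusted p = 0.00617), and Mogat1, an acyltransferase (log2 fold change -2.57 ± 0.27, adjusted p = 5.31e-05), fell. Dgat2, which adds the last fatty acid to a triglyceride, measured 711, 1649 and 944 CPM in HFD and 1777, 1486 and 1341 CPM in LFD libraries and did not pass (adjusted p = 0.254), but did so without HFD b, at a log2 fold change of -0.87.

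Of 22 genes of lipolysis and the lipid droplet, 10 fell and 2 rose, with a median of -0.63. Without HFD c the number that fell was 6. Lipe, the hormone-sensitive lipase, measured 392, 718 and 505 CPM in HFD and 1105, 1146 and 1436 CPM in LFD libraries (log2 fold change -1.19 ± 0.25, adjusted p = 0.00279). Pnpla2, the first lipase of triglyceride breakdown, measured 449.7, 879 and 708 CPM in HFD and 1133, 1085 and 1677 CPM in LFD libraries (log2 fold change -0.93 ± 0.29, adjusted p = 0.0216), a call that was lost without HFD a, HFD c or LFD c and with the GC trend removed. Plin1, the coat protein of adipocyte droplets, measured 213, 427 and 303 CPM in HFD and 422, 389 and 539 CPM in LFD libraries, with overlapping groups (adjusted p = 0.172). Plin2, a droplet coat of many cell types including foam cells, went the other way, with 1807, 2022 and 2116 CPM in HFD and 629, 500.0 and 510.1 CPM in LFD libraries (log2 fold change 1.86 ± 0.17, adjusted p = 2.84e-05).

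In the insulin pathway 7 of 20 genes rose and 8 fell. Slc2a4, the insulin-responsive glucose transporter GLUT4, measured 24.8, 41.8 and 30.0 CPM in HFD and 121, 116 and 139.8 CPM in LFD libraries (log2 fold change -1.96 ± 0.23, adjusted p = 9.68e-05), a 3.89-fold fall. Insr, the insulin receptor, measured 50.3, 61.6 and 54.3 CPM in HFD and 83.9, 70.0 and 86.1 CPM in LFD libraries (log2 fold change -0.53 ± 0.16, adjusted p = 0.0218), a call that was lost without HFD a, HFD c, LFD a or LFD c and under scaling on adipocyte-side genes. Lnpep, an aminopeptidase that travels in GLUT4 vesicles, rose (log2 fold change 2.22 ± 0.28, adjusted p = 0.00017). The substrate Irs1 measured 3.76, 4.76 and 5.32 CPM in HFD and 4.76, 2.32 and 3.03 CPM in LFD libraries and did not pass (adjusted p = 0.187). Without HFD c, 4 genes of the list rose and 5 fell, without LFD b, 4 rose, and under scaling on adipocyte-side genes 5 fell.

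Adipocytes have a high capacity to break down branched-chain amino acids. Of 21 genes of this pathway 16 fell, 1 rose and 4 did not pass, with a median of -0.78. Bcat2, the mitochondrial transaminase of the first step, measured 73.2, 101 and 81.1 CPM in HFD and 167, 213 and 255 CPM in LFD libraries (log2 fold change -1.32 ± 0.18, adjusted p = 0.000233). Bckdhb, a subunit of the committing dehydrogenase, measured 26.8, 45.7 and 29.1 CPM in HFD and 63.1, 68.2 and 91.0 CPM in LFD libraries (log2 fold change -1.12 ± 0.24, adjusted p = 0.00377). Ivd, which acts on the leucine branch, measured 59.8, 85.4 and 65.0 CPM in HFD and 173, 184 and 242 CPM in LFD libraries (log2 fold change -1.51 ± 0.18, adjusted p = 0.000137). Aldh6a1 on the valine branch measured 112, 171 and 134 CPM in HFD and 274, 293 and 433 CPM in LFD libraries (log2 fold change -1.26 ± 0.24, adjusted p = 0.00172). The groups did not overlap in any of these genes. The exception, named after its values were seen, was the cytosolic transaminase Bcat1 (log2 fold change 1.18 ± 0.24, adjusted p = 0.00269), which is active in proliferating cells and macrophages.

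Among secreted proteins 4 of 19 rose and 8 fell, with a median of -0.25 that was -0.05 under scaling on adipocyte-side genes (6 rose), -0.03 with the length trend removed and -0.10 with the GC trend removed. Adipoq, which encodes adiponectin, measured 795, 1494 and 862 CPM in HFD and 2669, 3071 and 4371 CPM in LFD libraries (log2 fold change -1.68 ± 0.29, adjusted p = 0.00114), a 3.21-fold fall. Lep, which encodes leptin, measured 1027, 2414 and 1656 CPM in HFD and 1713, 1649 and 1023 CPM in LFD libraries, and the groups overlapped widely (log2 fold change 0.22 ± 0.34, adjusted p = 0.616). Gdf15, a stress-induced hormone that curbs appetite, measured 18.6, 11.5 and 13.2 CPM in HFD and 3.33, 1.81 and 1.32 CPM in LFD libraries (log2 fold change 2.81 ± 0.28, adjusted p = 4.5e-05). Without HFD b or LFD c the number of secreted proteins that rose was 2.

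**Figure D3:**
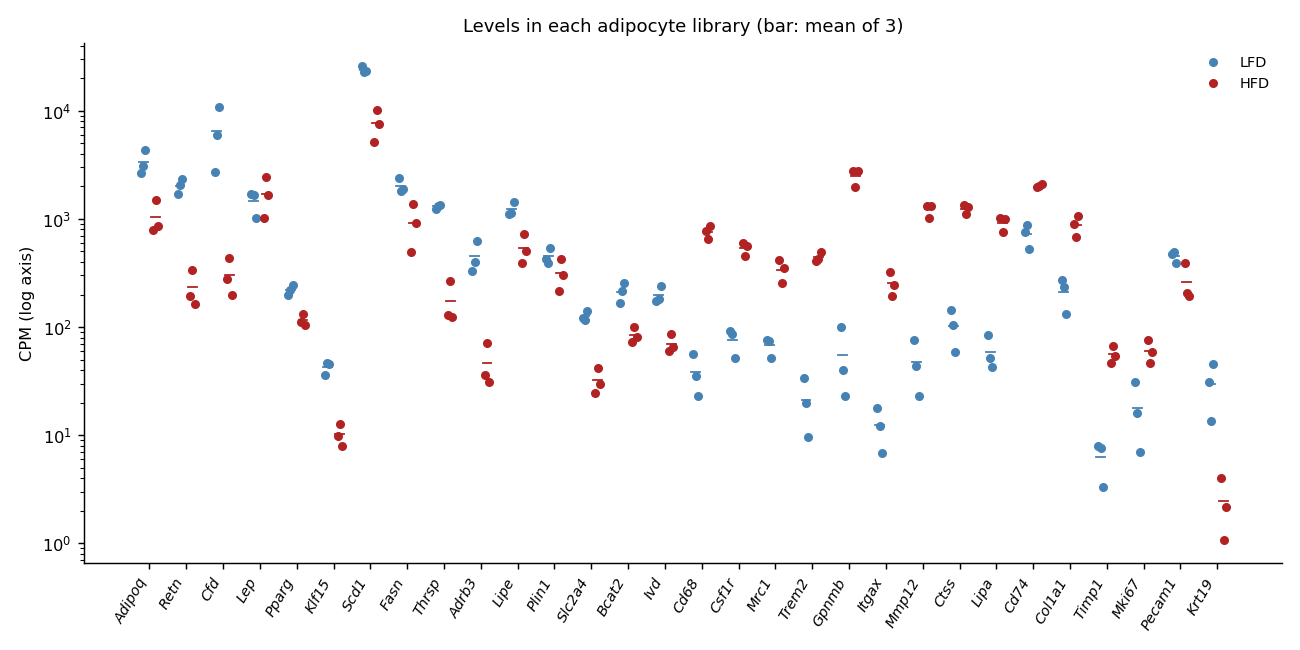
Levels of 30 genes in each LFD (blue) and HFD (red) adipocyte library, in CPM on a log axis, with a bar at the mean of 3 libraries. Adipocyte genes on the left, other than Lep and Plin1 whose groups overlap, are lower in HFD mice; genes from Cd68 to Mki67 are higher, and Pecam1 and Krt19 on the right are lower.

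Of 67 nuclear-encoded subunits of oxidative phosphorylation tested, 55 were lower and 0 higher, with a median of -0.91. In SW mice 6 of the 67 were adipocyte-side, 0 SVC-side and 61 on neither side. Ndufa5 of complex I measured 34.7, 44.1 and 38.0 CPM in HFD and 74.4, 108 and 124 CPM in LFD libraries (log2 fold change -1.39 ± 0.26, adjusted p = 0.00149). Cox5a of complex IV measured 105.3, 136 and 119 CPM in HFD and 209, 266 and 291 CPM in LFD libraries (log2 fold change -1.09 ± 0.22, adjusted p = 0.00232). In contrast Ndufs1, a large core subunit of complex I, measured 92.7, 109 and 101 CPM in HFD and 102, 89.0 and 119 CPM in LFD libraries with overlapping groups (adjusted p = 0.885), and the core genes Uqcrc1, Uqcrc2, Atp5a1 and Atp5b did not pass either. Transcript length moved with this result. The median length of the subunits that fell was 918 bases and of those that did not pass 1906 bases, and 52 of the subunits were among the shortest of 5 classes of all genes. In that class 39.8% of all genes were lower and 13.6% higher in HFD, with a median of -0.42. In the longest class 14.7% were lower and 38.3% higher, with a median of 0.24. After removal of the length trend 40 subunits were lower and 2 higher, with a median of -0.40, and under scaling on adipocyte-side genes 39 were lower. The shares at each length are given as measured, and the part of length in the fall was not tested further.

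**Figure D4:**
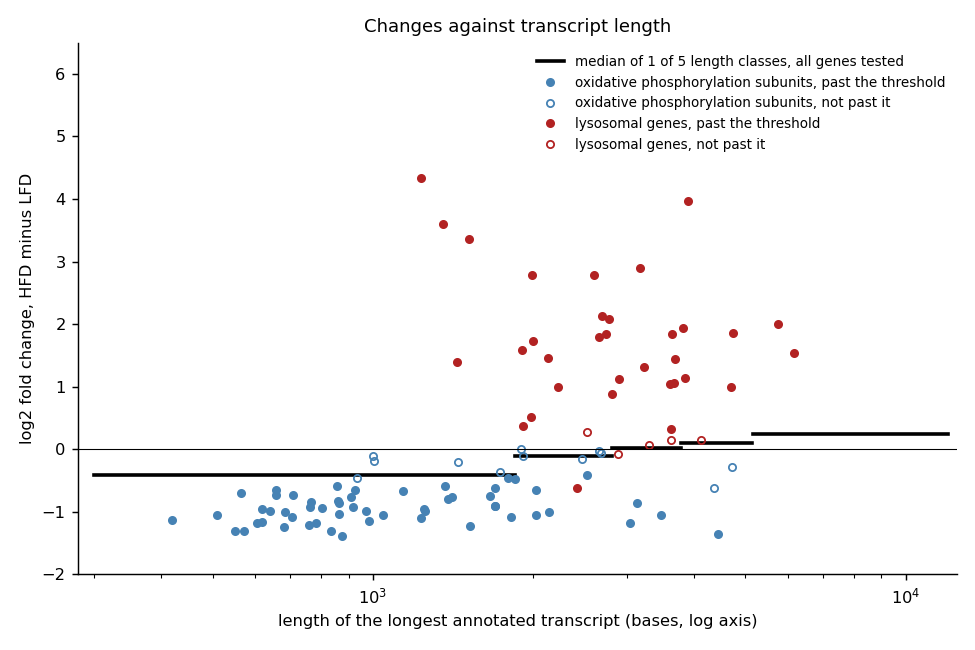
The log2 fold change (HFD minus LFD) is plotted against the length of the longest annotated transcript (log axis) for oxidative phosphorylation subunits (blue) and lysosomal genes (red), filled where the gene passed the threshold. Black bars give the medians of 5 length classes of all genes, which run from -0.42 to 0.24; the outer bars are cut at the plotted range. All 55 filled blue points lie below the bar of their class, and the 32 lysosomal genes that rose lie above theirs.

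The promoter of Ndufa5, shown as the subunit with the largest fall among those with such a match, holds 1 match (capitals) to a motif of nuclear respiratory factor 1, searched on both strands as GCGC, any 1 base and TGCGC. The window is the 250 bases upstream of a RefSeq start in GRCm38.p6 (chr6:24527527-24527776, minus strand). Where a gene has several such windows, the first listed one with a match is shown. Near its end this window holds an ATG with an open reading frame, so it may reach into coding sequence, which was not tested.
Ndufa5: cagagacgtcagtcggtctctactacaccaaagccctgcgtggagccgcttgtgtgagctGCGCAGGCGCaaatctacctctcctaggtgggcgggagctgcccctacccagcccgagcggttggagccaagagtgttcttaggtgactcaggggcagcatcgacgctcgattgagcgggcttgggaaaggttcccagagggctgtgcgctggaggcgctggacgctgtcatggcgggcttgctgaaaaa
Of the 67 subunits 47 had a promoter in the RefSeq table, and 7 of these held the motif on either strand (14.9%), against 4.23% of 27025 genes with such windows. All 7 were among the genes that fell, as were 55 of the 67 subunits, so this count does not set the holders apart. The 27025 genes, here and for the motifs below, were not filtered by their level in these libraries, unlike the members of each list.

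In fatty acid oxidation 7 of 22 genes fell (31.8%, against 25% of all genes) and 2 rose (9.09%, against 26.5%). The median of -0.17 turned to 0.04 under scaling on adipocyte-side genes and was -0.26 with upper-quartile factors or the GC trend removed. Cpt1a, which lets fatty acids into mitochondria, measured 184, 159.8 and 178 CPM in HFD and 78.2, 62.0 and 57.8 CPM in LFD libraries (log2 fold change 1.40 ± 0.14, adjusted p = 4.17e-05). Acads, the dehydrogenase of short chains, fell (log2 fold change -0.74 ± 0.20, adjusted p = 0.0111), a call that was lost with the GC trend removed. Acadm, which acts on medium chains, measured 226, 360.0 and 308 CPM in HFD and 339.5, 328 and 369 CPM in LFD libraries and did not pass (adjusted p = 0.345). Etfdh, which passes electrons from fatty acid oxidation to the respiratory chain, measured 84.9, 124 and 102 CPM in HFD and 88.2, 54.3 and 71.3 CPM in LFD libraries and did not pass (adjusted p = 0.104), but did so under scaling on adipocyte-side genes, where 4 genes of this list rose. Of 23 genes of the TCA cycle and pyruvate entry 7 fell (30.4%, not far from the 25% of all genes) and 0 rose. The number that fell was 3 without HFD a, HFD c or LFD c, and 4 under scaling on adipocyte-side genes or with the length trend removed. Citrate synthase, Cs, measured 251, 374 and 324 CPM in HFD and 371, 317 and 372 CPM in LFD libraries (adjusted p = 0.455). Mpc2, a subunit of the mitochondrial pyruvate carrier, measured 73.6, 140.4 and 96.3 CPM in HFD and 211, 226 and 244 CPM in LFD libraries (log2 fold change -1.13 ± 0.24, adjusted p = 0.00325). Dlat, a subunit of pyruvate dehydrogenase, did not pass (-0.03 ± 0.15 on the log2 scale). Pcx, which makes oxaloacetate from pyruvate, measured 247, 588 and 392 CPM in HFD and 661, 516 and 675 CPM in LFD libraries and did not pass (adjusted p = 0.119), but did so without HFD b, at -0.94 on the log2 scale.

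Of 14 thermogenic genes 4 fell (28.6%, near the 25% of all genes) and 2 rose (14.3%, against 26.5%). The median of -0.03 turned to 0.19 under scaling on adipocyte-side genes and 0.18 with the length trend removed. It was -0.13 with upper-quartile factors or the GC trend removed. Ucp1, the uncoupling protein of brown and beige fat, measured 20.4, 14.2 and 20.9 CPM in HFD and 6.66, 0.413 and 51.7 CPM in LFD libraries. Its LFD libraries lay on both sides of the HFD libraries, and no difference was detectable (log2 fold change -0.04 ± 1.21, adjusted p = 0.984).

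Of 20 macrophage markers 19 rose, 0 fell and 1 (Aif1) did not pass, with a median log2 fold change of 3.05. Emr1 (Adgre1), which encodes the macrophage antigen F4/80, measured 804, 564 and 738 CPM in HFD and 35.7, 32.8 and 25.4 CPM in LFD libraries (log2 fold change 4.49 ± 0.20, adjusted p = 6.04e-06). Cd68, a membrane protein of macrophage lysosomes, measured 771, 655 and 868 CPM in HFD and 56.5, 35.2 and 22.8 CPM in LFD libraries (log2 fold change 4.33 ± 0.33, adjusted p = 1.14e-05), a 20.1-fold rise. Csf1r, the receptor for the macrophage growth factor, measured 593, 454 and 564 CPM in HFD and 91.5, 85.8 and 51.4 CPM in LFD libraries (log2 fold change 2.81 ± 0.22, adjusted p = 1.36e-05). C1qa, a chain of complement C1q that tissue macrophages make, measured 588, 570.2 and 604 CPM in HFD and 161, 195 and 133 CPM in LFD libraries (log2 fold change 1.85 ± 0.29, adjusted p = 0.000584). In each gene the groups were far apart, and HFD b, which had the highest levels of many adipocyte genes, had the lowest HFD level of Emr1, Cd68, Csf1r and C1qa.

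Genes of lipid-associated macrophages, the cells that surround dying adipocytes, rose in 16 of 18 cases, with a median of 2.57. Trem2, the lipid-sensing receptor of these cells, measured 405.8, 429 and 490.0 CPM in HFD and 34.1, 19.7 and 9.63 CPM in LFD libraries (log2 fold change 4.40 ± 0.43, adjusted p = 3.98e-05). Itgax, which encodes CD11c, measured 322, 193 and 244 CPM in HFD and 17.9, 12.2 and 6.86 CPM in LFD libraries (log2 fold change 4.37 ± 0.33, adjusted p = 1.08e-05). Mmp12, the macrophage elastase, measured 1324, 1029.9 and 1322 CPM in HFD and 75.5, 43.2 and 23.1 CPM in LFD libraries (log2 fold change 4.70 ± 0.40, adjusted p = 1.8e-05). Apoe did not pass, and Acp5, the tartrate-resistant phosphatase, fell, with 156, 265 and 194 CPM in HFD and 328, 354 and 465 CPM in LFD libraries (log2 fold change -0.90 ± 0.21, adjusted p = 0.00595). Without LFD a the number that fell was 2. In SW mice 2 of the 18 genes were SVC-side, 1 adipocyte-side and 15 on neither side, so the fractions place few of them.

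Genes of fusion and bone resorption, which osteoclasts share with multinucleate macrophages, were mixed, with 6 of 12 higher and 3 lower. Ctsk, the collagen-degrading cathepsin, measured 465, 323 and 416 CPM in HFD and 45.8, 44.3 and 26.8 CPM in LFD libraries (log2 fold change 3.36 ± 0.27, adjusted p = 1.43e-05). Dcstamp, a membrane protein needed for cell fusion, measured 15.6, 9.85 and 17.1 CPM in HFD and 1.59, 1.496 and 0.527 CPM in LFD libraries (log2 fold change 3.49 ± 0.43, adjusted p = 0.000143). The genes that fell were Acp5, Mmp9 and Car2.

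Of 17 genes of resident perivascular macrophages 9 rose and 3 fell, with a median of 0.62. Folr2, a folate receptor, measured 288, 244 and 272 CPM in HFD and 38.1, 36.0 and 28.2 CPM in LFD libraries (log2 fold change 2.97 ± 0.19, adjusted p = 6.26e-06). Mrc1, the mannose receptor CD206, measured 416, 253 and 351 CPM in HFD and 76.6, 74.8 and 52.2 CPM in LFD libraries (log2 fold change 2.32 ± 0.21, adjusted p = 2.43e-05). Lyve1, a hyaluronan receptor of macrophages near vessels and of lymphatic endothelium, measured 19.8, 23.5 and 22.7 CPM in HFD and 16.2, 17.1 and 9.76 CPM in LFD libraries; its groups did not overlap but the gene did not pass (adjusted p = 0.0932). It passed in a fit of the 6 libraries alone and under scaling on adipocyte-side genes. Those that fell were Cd209d, Ccl24 and Retnla.

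Of 38 hydrolases and membrane proteins of the lysosome, V-ATPase subunits not included, 32 rose, 1 fell (Smpd1) and 5 did not pass, with a median of 1.45. Lipa, the acid lipase that frees fatty acids and cholesterol from engulfed lipid, measured 1012, 758 and 992 CPM in HFD and 83.9, 51.8 and 42.3 CPM in LFD libraries (log2 fold change 3.96 ± 0.27, adjusted p = 7.37e-06). Ctss, a cathepsin of antigen-presenting cells, measured 1335, 1109 and 1289 CPM in HFD and 145, 104 and 59.2 CPM in LFD libraries (log2 fold change 3.60 ± 0.33, adjusted p = 2.44e-05). Ctsd, a cathepsin that most cell types express, measured 5271, 5275 and 5844 CPM in HFD and 2170.0, 1989 and 1820.2 CPM in LFD libraries (log2 fold change 1.45 ± 0.23, adjusted p = 0.000612). Lamp1, a structural membrane protein of lysosomes in all cells, measured 1266, 1237 and 1241 CPM in HFD and 682, 600.3 and 596 CPM in LFD libraries (log2 fold change 1.00 ± 0.14, adjusted p = 0.000319). Of the 38 genes 6 were SVC-side and 0 adipocyte-side. The 20 macrophage markers moved with this list, and their part in it was not tested. Cd68 and Laptm5 are members of both lists. Ctsk, Cd63, Lipa, Ctsd and Ctsz are also in the list of lipid-associated macrophages, and Ctss is in that of MHC class II.

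The promoter of Gla, the alpha-galactosidase with the largest rise among lysosomal genes with such a match (log2 fold change 2.90 ± 0.19, adjusted p = 6.26e-06), is shown with both matches to the palindrome TCACGTGA, a motif bound by TFEB, in capitals. The window is the 250 bases upstream of the RefSeq start in GRCm38.p6 (chrX:134601006-134601255, minus strand).
Gla: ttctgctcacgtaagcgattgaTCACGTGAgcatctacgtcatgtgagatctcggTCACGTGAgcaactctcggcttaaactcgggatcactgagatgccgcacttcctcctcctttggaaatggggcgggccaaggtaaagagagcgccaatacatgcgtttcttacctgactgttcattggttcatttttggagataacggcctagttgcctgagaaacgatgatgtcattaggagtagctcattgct
Of the 38 lysosomal genes 30 had a promoter in the RefSeq table, and 4 held the palindrome (13.3%; Ctsa, Ctsd, Gla and Mcoln1), against 0.907% of all 27025 genes. Of these 4, 3 rose and Mcoln1 did not pass, beside 32 of 38 that rose in the whole list.

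Of 13 genes of cholesterol efflux and LXR targets 7 rose and 2 fell (Nr1h3 and Mylip), with a median of 0.45 that was 0.22 with the length trend removed. Soat1, which esterifies cholesterol for storage in foam cells, measured 118, 86.4 and 116 CPM in HFD and 19.3, 11.1 and 7.12 CPM in LFD libraries (log2 fold change 3.12 ± 0.30, adjusted p = 3.22e-05). The exporter Abcg1 measured 105.3, 83.8 and 102 CPM in HFD and 38.9, 36.1 and 35.1 CPM in LFD libraries (log2 fold change 1.40 ± 0.16, adjusted p = 7.68e-05). Abca1, the other main exporter, measured 225, 172 and 198 CPM in HFD and 157, 131 and 130.1 CPM in LFD libraries (log2 fold change 0.51 ± 0.15, adjusted p = 0.0182), a call that was lost without HFD a, LFD b or LFD c and with the length trend removed.

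Of 16 genes of iron handling 9 rose and 1 fell (Trf), with a median of 0.56. Slc11a1, the metal pump of macrophage phagosomes, measured 193, 162 and 197 CPM in HFD and 26.5, 31.7 and 16.9 CPM in LFD libraries (log2 fold change 2.86 ± 0.24, adjusted p = 1.62e-05). Hmox1, which opens heme, measured 199, 229.5 and 271 CPM in HFD and 58.5, 58.9 and 37.6 CPM in LFD libraries (log2 fold change 2.17 ± 0.21, adjusted p = 3.3e-05). The iron exporter Slc40a1 measured 23.1, 10.5 and 22.6 CPM in HFD and 9.20, 10.4 and 6.59 CPM in LFD libraries (log2 fold change 1.08 ± 0.29, adjusted p = 0.0109). Tfrc, the transferrin receptor, measured 39.3, 40.8 and 42.8 CPM in HFD and 43.3, 30.3 and 23.6 CPM in LFD libraries and did not pass (adjusted p = 0.137), but did so without LFD a, at 0.60 on the log2 scale, and under scaling on adipocyte-side genes.

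Of 14 genes of antigen presentation by MHC class II 11 rose and 0 fell, with a median of 1.37. Cd74, the invariant chain, measured 1964, 2015 and 2112 CPM in HFD and 762, 874 and 525 CPM in LFD libraries (log2 fold change 1.49 ± 0.28, adjusted p = 0.00169). H2-Ab1, a class II chain, measured 658, 697 and 692 CPM in HFD and 291, 347 and 233 CPM in LFD libraries (log2 fold change 1.23 ± 0.26, adjusted p = 0.00304). Of the 14 genes 8 were SVC-side.

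Of 19 markers of T and NK cells 1 rose (Cd28), 2 fell (Cd247 and Gata3) and 16 did not pass, and their sum was 23.1 to 39.3 CPM in HFD and 31.4 to 48.8 CPM in LFD libraries. Cd8a measured 1.88, 0.584 and 1.56 CPM in HFD and 0.159, 0.619 and 0.396 CPM in LFD libraries (adjusted p = 0.169), levels at which single libraries hold few counts. Cd247, the zeta chain of the T cell receptor complex, measured 5.79, 3.97 and 5.45 CPM in HFD and 12.5, 16.2 and 11.3 CPM in LFD libraries (log2 fold change -1.42 ± 0.21, adjusted p = 0.000442). Of 11 markers of B and plasma cells 1 rose (Cd22) and 0 fell, and their sum was 432 to 607 CPM in HFD and 349 to 692 CPM in LFD libraries. Cd79a, a chain of the B cell receptor, measured 3.16, 1.503 and 2.06 CPM in HFD and 2.06, 7.94 and 2.24 CPM in LFD libraries (adjusted p = 0.138), and Ms4a1 (CD20) was also low, at 0.977, 0.877 and 1.03 CPM in HFD and 0, 1.19 and 0.264 CPM in LFD libraries (adjusted p = 0.618).

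Of 11 neutrophil and mast cell markers 5 rose and 0 fell. The neutrophil marker Csf3r was among those that rose, while the mast cell markers Kit and Hdc did not pass. Nor did the neutrophil markers S100a9, Cxcr2 and Retnlg. Cpa3, a protease of mast cell granules, measured 48.3, 19.6 and 39.2 CPM in HFD and 2.06, 5.00 and 3.43 CPM in LFD libraries (log2 fold change 3.23 ± 0.42, adjusted p = 0.000187), and the other mast cell proteases Cma1, Mcpt4 and Tpsb2 also rose. S100a8, which neutrophils make in bulk, measured 9.32, 18.6 and 8.99 CPM in HFD and 14.1, 13.6 and 5.54 CPM in LFD libraries with overlapping groups (adjusted p = 0.787).

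Chemokines and their receptors rose in 14 of 30 cases and fell in 2 (Ccl24 and Cxcl9), with a median of 0.74. Ccl2, the attractant of monocytes, measured 52.8, 86.2 and 57.2 CPM in HFD and 23.2, 23.4 and 8.97 CPM in LFD libraries (log2 fold change 1.81 ± 0.33, adjusted p = 0.00145). Ccl3 measured 12.9, 8.68 and 8.41 CPM in HFD and 0.476, 1.39 and 0.527 CPM in LFD libraries (log2 fold change 3.38 ± 0.40, adjusted p = 0.000115). Cxcl2, an attractant of neutrophils, measured 34.3, 24.2 and 9.30 CPM in HFD and 1.74, 0.825 and 0.396 CPM in LFD libraries (log2 fold change 4.60 ± 0.59, adjusted p = 0.000186).

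Of 25 cytokines, toll-like receptors and inflammasome genes 18 rose and 0 fell, with a median of 2.25. Tnf, the cytokine that blunts insulin action, measured 5.56, 3.51 and 4.65 CPM in HFD and 1.27, 1.03 and 0.527 CPM in LFD libraries (log2 fold change 2.25 ± 0.32, adjusted p = 0.000364), and its level was low in all libraries. Il1rn, the antagonist of the IL-1 receptor, measured 81.7, 72.7 and 106 CPM in HFD and 9.67, 3.20 and 1.71 CPM in LFD libraries (log2 fold change 4.27 ± 0.46, adjusted p = 6.15e-05), whereas Il1b and Il6 did not pass. Tlr8, which senses RNA in endosomes, measured 81.6, 42.2 and 48.5 CPM in HFD and 1.43, 0.774 and 0.264 CPM in LFD libraries (log2 fold change 6.17 ± 0.65, adjusted p = 5.67e-05). Tlr13, which senses bacterial RNA, measured 122, 79.2 and 105.4 CPM in HFD and 5.39, 4.23 and 1.45 CPM in LFD libraries (log2 fold change 4.78 ± 0.33, adjusted p = 7.64e-06). Tlr2, a sensor of bacterial lipoproteins, rose by 1.83 ± 0.16 on the log2 scale. In SW mice 3 of the 25 genes were SVC-side, 2 adipocyte-side and 20 on neither side.

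Of 22 complement genes 17 rose and 3 fell (C2, C6 and Cfd), with a median of 1.59. Among those that rose, C1qa, C1qb, C1qc, Itgam, Itgax and Vsig4 are also in the macrophage lists above. C3, the central component, measured 1233, 1065 and 1045 CPM in HFD and 485, 579.8 and 395 CPM in LFD libraries (log2 fold change 1.20 ± 0.18, adjusted p = 0.000482). C3ar1, a receptor for its fragment, measured 279, 213 and 286 CPM in HFD and 21.2, 13.5 and 6.07 CPM in LFD libraries (log2 fold change 4.27 ± 0.36, adjusted p = 1.63e-05). Cfb, the factor that Cfd cleaves, measured 236, 476 and 307 CPM in HFD and 267, 239.7 and 230.3 CPM in LFD libraries and did not pass (adjusted p = 0.121), but did so without HFD a, at 0.67 on the log2 scale, and under scaling on adipocyte-side genes.

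Of 24 interferon-stimulated genes 13 fell and 2 rose (Oas1a and Oas3), with a median of -0.64. Bst2, which tethers viruses to the membrane, measured 84.2, 80.4 and 67.5 CPM in HFD and 199.8, 233 and 242 CPM in LFD libraries (log2 fold change -1.54 ± 0.26, adjusted p = 0.00103). Isg15, a ubiquitin-like modifier, measured 14.4, 15.9 and 11.4 CPM in HFD and 26.8, 31.5 and 33.5 CPM in LFD libraries (log2 fold change -1.14 ± 0.28, adjusted p = 0.00691). Irf7, the factor that amplifies the response, measured 22.5, 24.5 and 22.0 CPM in HFD and 40.4, 39.6 and 33.8 CPM in LFD libraries (log2 fold change -0.72 ± 0.20, adjusted p = 0.0113). In each gene the HFD libraries lay below the LFD libraries. The call of Irf7 was lost under scaling on adipocyte-side genes (adjusted p = 0.0768).

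The promoter of Bst2, the gene with the largest fall among those with such a match, holds overlapping matches, in capitals, to an interferon response motif searched on both strands as TTTC, any 2 bases and TTTC, and found here on the other strand. The window is the 250 bases upstream of the RefSeq start in GRCm38.p6 (chr8:71537473-71537722, minus strand).
Bst2: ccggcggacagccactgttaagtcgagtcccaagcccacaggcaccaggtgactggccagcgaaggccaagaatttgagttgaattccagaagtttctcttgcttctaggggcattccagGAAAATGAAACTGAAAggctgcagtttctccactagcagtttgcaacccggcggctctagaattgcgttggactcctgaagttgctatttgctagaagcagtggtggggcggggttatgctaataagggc
Of 24 interferon-stimulated genes 18 had a promoter in the RefSeq table, and 10 held the motif (55.6%), against 3.46% of all 27025 genes. Of these 10, 7 fell, beside 13 of 24 in the whole list.

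Collagens rose in 14 of 21 cases and fell in 0, with a median of 0.82. Col1a1 of fibrillar collagen I measured 889.7, 679 and 1065 CPM in HFD and 271, 235 and 132 CPM in LFD libraries (log2 fold change 2.04 ± 0.27, adjusted p = 0.000202). Col6a3, from whose end endotrophin is cut, measured 443, 270.1 and 379 CPM in HFD and 249.8, 194 and 132 CPM in LFD libraries (log2 fold change 0.92 ± 0.25, adjusted p = 0.0125). Col6a5 measured 119, 50.3 and 88.3 CPM in HFD and 12.7, 14.8 and 9.89 CPM in LFD libraries (log2 fold change 2.77 ± 0.30, adjusted p = 6.22e-05). Chains of basement membrane collagen IV (Col4a1 and Col4a2) did not pass. Of the 21 collagens 9 were SVC-side and 0 adipocyte-side.

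Of 25 matrix proteases, inhibitors and crosslinkers 18 rose and 3 fell, with a median of 1.39. Mmp14, a membrane-bound collagenase, measured 146, 96.2 and 151 CPM in HFD and 45.8, 43.6 and 41.1 CPM in LFD libraries (log2 fold change 1.59 ± 0.16, adjusted p = 5.22e-05). Lox, which crosslinks collagen, measured 125, 167 and 159 CPM in HFD and 69.9, 59.4 and 45.8 CPM in LFD libraries (log2 fold change 1.37 ± 0.17, adjusted p = 0.00014). The inhibitors went both ways: Timp1, which inflamed stroma makes, measured 46.9, 66.8 and 54.5 CPM in HFD and 7.93, 7.69 and 3.30 CPM in LFD libraries (log2 fold change 3.13 ± 0.38, adjusted p = 0.000128), while Timp4, an adipocyte-side gene, measured 65.2, 64.8 and 29.2 CPM in HFD and 442, 635 and 569 CPM in LFD libraries.

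Of 22 fibroblast and progenitor markers 8 rose (36.4%) and 3 fell (13.6%), against 26.5% and 25% of all genes. Their median was 0.47, and without HFD c the number that fell was 1. Under scaling on adipocyte-side genes 13 rose and 1 fell. Pdgfra, the receptor that marks adipose progenitors, measured 93.0, 46.0 and 80.0 CPM in HFD and 35.5, 30.9 and 20.6 CPM in LFD libraries (log2 fold change 1.33 ± 0.26, adjusted p = 0.00228). Lum, a matrix proteoglycan, measured 512, 392 and 490.4 CPM in HFD and 109, 136 and 66.7 CPM in LFD libraries (log2 fold change 2.16 ± 0.24, adjusted p = 8.48e-05). Dpp4, which marks early progenitors, measured 17.5, 9.77 and 17.6 CPM in HFD and 9.67, 10.2 and 8.44 CPM in LFD libraries and did not pass (adjusted p = 0.0531), but did so without HFD b, at 0.90 on the log2 scale, and with DESeq2.

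Of 23 genes of TGF-beta, activin and BMP signalling 8 rose and 9 fell, with a median of -0.28 that was -0.06 under scaling on adipocyte-side genes (6 fell) and -0.45 with the length trend removed. Tgfbr1, a receptor for TGF-beta, measured 93.2, 71.4 and 85.1 CPM in HFD and 23.0, 22.3 and 20.04 CPM in LFD libraries (log2 fold change 1.93 ± 0.15, adjusted p = 1.24e-05). Acvr1c (ALK7), an activin-type receptor that curbs lipolysis in adipocytes, measured 26.0, 49.1 and 42.7 CPM in HFD and 72.9, 75.8 and 112 CPM in LFD libraries (log2 fold change -1.14 ± 0.28, adjusted p = 0.00741). The activin subunit Inhbb measured 40.7, 49.97 and 42.3 CPM in HFD and 34.4, 27.4 and 29.3 CPM in LFD libraries (log2 fold change 0.55 ± 0.20, adjusted p = 0.0395), a call that was lost without HFD b, HFD c, LFD b or LFD c and with upper-quartile factors.

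Vessels, the covering of the fat pad, blood and neighbouring organs can also leave RNA in a floating fraction. Of 19 endothelial markers 16 fell and 0 rose, with a median of -1.08 and sums of 1544 to 2768 CPM in HFD and 4269.8 to 4854 CPM in LFD libraries. Pecam1 (CD31) measured 387, 208 and 193 CPM in HFD and 473, 489 and 388 CPM in LFD libraries (log2 fold change -0.78 ± 0.25, adjusted p = 0.0251). Cldn5, a tight junction protein, measured 226, 172 and 138 CPM in HFD and 556, 641 and 717 CPM in LFD libraries (log2 fold change -1.84 ± 0.21, adjusted p = 8.8e-05). Cdh5 (VE-cadherin) measured 401.4, 214 and 211 CPM in HFD and 453, 400.8 and 324 CPM in LFD libraries, where HFD a lay within the LFD range, and did not pass (adjusted p = 0.138). Without HFD a Cdh5 passed, at -0.89 on the log2 scale. Pecam1 lost its call without HFD b, HFD c, LFD a or LFD b and under scaling on adipocyte-side genes, and 10 endothelial markers fell without HFD c or under scaling on adipocyte-side genes.

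Of 16 mesothelial markers 13 fell and 0 rose, with a median of -1.79 and sums of 68.6 to 138 CPM in HFD and 289.8 to 416 CPM in LFD libraries. The keratin Krt7 measured 1.35, 0.376 and 1.52 CPM in HFD and 34.7, 7.79 and 61.8 CPM in LFD libraries (log2 fold change -5.02 ± 0.95, adjusted p = 0.00209). The keratin Krt19 measured 4.06, 1.09 and 2.19 CPM in HFD and 30.8, 13.5 and 45.9 CPM in LFD libraries (log2 fold change -3.67 ± 0.62, adjusted p = 0.000963). Upk3b, a uroplakin of the fat pad's covering, measured 11.8, 3.76 and 7.24 CPM in HFD and 25.2, 24.4 and 31.8 CPM in LFD libraries (log2 fold change -1.86 ± 0.35, adjusted p = 0.00165). Msln, mesothelin, measured 5.86, 1.42 and 3.40 CPM in HFD and 9.99, 14.0 and 9.76 CPM in LFD libraries (log2 fold change -1.72 ± 0.41, adjusted p = 0.00604). Red cell genes fell in 5 of 5 cases, with hemoglobin transcripts at 0.0614% to 0.0822% of the HFD and 0.217% to 0.322% of the LFD counts. Hba-a1, an alpha globin whose reads may be shared with its near-identical copy, measured 136, 117 and 141 CPM in HFD and 516, 744 and 834 CPM in LFD libraries (log2 fold change -2.41 ± 0.25, adjusted p = 5.22e-05). Alas2, the heme enzyme of red cell precursors, measured 6.31, 4.42 and 5.45 CPM in HFD and 16.5, 15.4 and 17.8 CPM in LFD libraries (log2 fold change -1.62 ± 0.16, adjusted p = 3.82e-05).

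Of 7 markers of testis and epididymis, organs that adjoin this fat pad, 1 rose (Star) and 2 fell (Insl3 and Prm1). Insl3, a hormone of Leydig cells, measured 0, 0 and 0.134 CPM in HFD and 3.96, 10.6 and 5.14 CPM in LFD libraries (adjusted p = 6.9e-05); no fold change is given, since the HFD libraries held 3 counts or fewer. Prm1, a protamine of sperm, measured 0.0751, 0.0417 and 0.179 CPM in HFD and 1.27, 0.309 and 0.923 CPM in LFD libraries (adjusted p = 0.0168), a call that was lost without HFD b or LFD a and with the length trend removed. Without HFD c the number of these markers that fell was 4, and without HFD b or LFD a it was 1. The part of these tissues in the falls of other genes was not tested.

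Of 28 genes of the cell cycle and mitosis 27 rose, 0 fell and 1 (Tyms) did not pass, with a median of 1.95. Mki67, the Ki-67 antigen of cycling cells, measured 75.6, 46.1 and 59.1 CPM in HFD and 30.8, 15.9 and 6.99 CPM in LFD libraries (log2 fold change 1.77 ± 0.42, adjusted p = 0.00619). Top2a, which untangles DNA before mitosis, measured 59.9, 44.4 and 58.0 CPM in HFD and 16.5, 9.13 and 3.56 CPM in LFD libraries (log2 fold change 2.50 ± 0.39, adjusted p = 0.000554). The cyclin Ccnb1 measured 20.6, 14.5 and 18.4 CPM in HFD and 5.39, 1.91 and 1.19 CPM in LFD libraries (log2 fold change 2.77 ± 0.39, adjusted p = 0.000318). In these genes LFD a was the highest of the LFD libraries. Of the 28 genes 2 were SVC-side and 2 adipocyte-side, so the fractions of SW mice do not place them.

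The promoter of Kif11, a mitotic motor and the gene with the largest rise among those with such a match (log2 fold change 2.71 ± 0.25, adjusted p = 2.74e-05), holds 1 match, in capitals and on the other strand, to TTTGAA, the core of the cell cycle homology region, searched on both strands. The window is the 250 bases upstream of the RefSeq start in GRCm38.p6 (chr19:37376132-37376381, plus strand).
Kif11: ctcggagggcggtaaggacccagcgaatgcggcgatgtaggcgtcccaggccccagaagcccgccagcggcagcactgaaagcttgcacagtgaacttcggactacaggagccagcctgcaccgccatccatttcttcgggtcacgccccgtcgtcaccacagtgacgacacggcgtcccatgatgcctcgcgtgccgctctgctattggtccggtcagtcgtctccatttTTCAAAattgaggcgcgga
Of the 28 genes 23 had a promoter in the RefSeq table, and 8 held these letters on either strand (34.8%), against 18.3% of all 27025 genes. All 8 were among the genes that rose, as were 27 of the 28 genes of the list, so this count does not set the holders apart.

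Of 13 genes of growth arrest and senescence 4 rose and 3 fell, shares near those of all genes. Cdkn1a (p21) measured 107, 148 and 114 CPM in HFD and 121, 122 and 109 CPM in LFD libraries (adjusted p = 0.724). Cdkn2a (p16) measured 1.503, 0.835 and 1.48 CPM in HFD and 1.43, 0.825 and 0.527 CPM in LFD libraries (adjusted p = 0.418). Both genes had overlapping groups. Cdkn1c (p57) measured 15.3, 13.9 and 14.5 CPM in HFD and 32.7, 39.9 and 45.6 CPM in LFD libraries (log2 fold change -1.44 ± 0.14, adjusted p = 3.83e-05).

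Of 22 genes of the unfolded protein response 13 rose and 2 fell (Herpud1 and Syvn1), with a median of 0.41 that was 0.62 under scaling on adipocyte-side genes. Hspa5 (BiP), the main chaperone of the endoplasmic reticulum, measured 904, 850.0 and 673 CPM in HFD and 573, 446 and 436 CPM in LFD libraries (log2 fold change 0.74 ± 0.18, adjusted p = 0.00672). Sdf2l1 measured 47.5, 41.8 and 40.2 CPM in HFD and 11.7, 10.1 and 7.78 CPM in LFD libraries (log2 fold change 2.13 ± 0.27, adjusted p = 0.000181). Xbp1 measured 141, 182 and 151 CPM in HFD and 166, 181 and 216 CPM in LFD libraries and did not pass (adjusted p = 0.164). Without LFD b or LFD c, 8 genes of this list rose.

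In the integrated stress response 5 of 20 genes rose (25%) and 4 fell (20%), shares near those of all genes (26.5% and 25%). The median was -0.03. It turned to 0.17 under scaling on adipocyte-side genes, 0.18 with the length trend removed and 0.11 with the GC trend removed. Without HFD c or LFD b, or in thinned counts, 3 rose. With upper-quartile factors 7 fell and the median was -0.12. Atf3, an early response factor, measured 262, 192 and 201 CPM in HFD and 27.6, 13.05 and 10.7 CPM in LFD libraries (log2 fold change 3.70 ± 0.32, adjusted p = 1.94e-05). Atf4, the factor that drives the response, measured 130.3, 135 and 129.8 CPM in HFD and 166, 154 and 163 CPM in LFD libraries, where the groups did not overlap, and did not pass (adjusted p = 0.0725), but did so with DESeq2 and upper-quartile factors. Its target Ddit3 (CHOP) measured 20.4, 28.6 and 22.2 CPM in HFD and 23.5, 30.2 and 31.8 CPM in LFD libraries (adjusted p = 0.309), and Asns, the asparagine synthetase, fell (log2 fold change -0.82 ± 0.20, adjusted p = 0.00605).

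Of 29 antioxidant and glutathione enzymes 16 fell and 5 rose, with a median of -0.57 that was -0.37 under scaling on adipocyte-side genes. Gsta3 measured 16.7, 28.7 and 16.9 CPM in HFD and 124, 133 and 141 CPM in LFD libraries. Gsta4 measured 5.11, 5.09 and 5.36 CPM in HFD and 69.5, 33.2 and 143 CPM in LFD libraries. For both the HFD libraries lay far below the LFD libraries. Gpx3, a secreted peroxidase, measured 320.0, 299.5 and 326 CPM in HFD and 334, 594 and 1074 CPM in LFD libraries (log2 fold change -1.08 ± 0.34, adjusted p = 0.0219), a call that was lost without HFD a, HFD b, HFD c or LFD c, under scaling on adipocyte-side genes, and with the length trend removed. The enzymes that rose were Prdx1, Gclc, Gclm, Txnrd1 and Hmox1.

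Of 18 genes of the hypoxia response 6 rose (33.3%) and 4 fell (22.2%), shares not far from those of all genes (26.5% and 25%). Vegfa, the growth factor for vessels, measured 27.4, 61.9 and 46.7 CPM in HFD and 76.3, 58.4 and 73.7 CPM in LFD libraries with overlapping groups (adjusted p = 0.177). Ldha, which makes lactate, measured 702, 972 and 784 CPM in HFD and 968, 849 and 893 CPM in LFD libraries (adjusted p = 0.522). Bnip3, a factor in mitochondrial clearance, measured 153, 251 and 189.7 CPM in HFD and 383, 388 and 544 CPM in LFD libraries (log2 fold change -1.15 ± 0.23, adjusted p = 0.00217). In glycolysis 9 of 21 genes rose and 2 fell, with a median of 0.05 that turned to -0.05 with upper-quartile factors, and without LFD c, 5 rose. Hk3, the hexokinase of leukocytes, measured 110.5, 91.5 and 114 CPM in HFD and 9.36, 5.98 and 2.64 CPM in LFD libraries (log2 fold change 4.16 ± 0.37, adjusted p = 2.15e-05). Slc16a3, a lactate exporter, measured 6.69, 6.01 and 8.32 CPM in HFD and 3.81, 2.94 and 1.45 CPM in LFD libraries (log2 fold change 1.36 ± 0.33, adjusted p = 0.00713). The basal glucose transporter Slc2a1 measured 22.1, 15.9 and 18.5 CPM in HFD and 14.1, 13.9 and 11.1 CPM in LFD libraries (log2 fold change 0.52 ± 0.16, adjusted p = 0.0185), a call that was lost without HFD a or LFD c.

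Of 22 genes of cholesterol synthesis and uptake 7 rose (31.8%) and 2 fell (9.09%), against 26.5% and 25% of all genes. The median of 0.21 was 0.41 under scaling on adipocyte-side genes and 0.11 with upper-quartile factors. Without HFD c or LFD c, 4 rose. Dhcr7, the last enzyme of the pathway, measured 30.4, 44.1 and 37.5 CPM in HFD and 18.7, 13.8 and 12.7 CPM in LFD libraries (log2 fold change 1.32 ± 0.21, adjusted p = 0.000563). Hmgcs1, an early enzyme, measured 252, 445 and 359.9 CPM in HFD and 332, 263 and 278 CPM in LFD libraries and did not pass (adjusted p = 0.34). Sqle, the squalene epoxidase, measured 22.0, 23.9 and 26.1 CPM in HFD and 19.8, 18.8 and 15.7 CPM in LFD libraries, where the groups did not overlap, and did not pass (adjusted p = 0.0703), but did so with no filter, in a fit of the 6 libraries alone and under scaling on adipocyte-side genes.

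Immediate early genes, which collagenase digestion can induce, rose in 8 of 22 cases (36.4%) and fell in 3 (13.6%). Fos measured 725, 515 and 377 CPM in HFD and 329.5, 155 and 113 CPM in LFD libraries (log2 fold change 1.44 ± 0.39, adjusted p = 0.0114). Egr1 measured 251, 196 and 105.1 CPM in HFD and 215, 140.2 and 89.5 CPM in LFD libraries with overlapping groups (adjusted p = 0.581). HFD a and LFD a were the highest libraries of their groups for both genes. Of 18 clock genes 4 rose (22.2%) and 6 fell (33.3%), shares not far from those of all genes (26.5% and 25%). Without any 1 of the 6 libraries 2 or 1 rose. Arntl (BMAL1), which drives the clock, measured 28.6, 24.5 and 24.4 CPM in HFD and 17.9, 18.9 and 20.2 CPM in LFD libraries (log2 fold change 0.44 ± 0.15, adjusted p = 0.0308), a call that was lost without HFD a, HFD c or any LFD library, with upper-quartile factors and in thinned counts. Nr1d1 (REV-ERB alpha) measured 48.0, 52.7 and 49.7 CPM in HFD and 115, 122 and 94.7 CPM in LFD libraries (log2 fold change -1.14 ± 0.20, adjusted p = 0.00122). Dbp, a clock output factor, measured 9.02, 8.85 and 10.8 CPM in HFD and 22.0, 19.4 and 14.2 CPM in LFD libraries (log2 fold change -0.95 ± 0.18, adjusted p = 0.00164). Time of day at collection was not compared here.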

How the data were processed

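Adipocytes and SVC of epididymal fat were profiled by RNA-seq. Per the labels and the study's methods, reads were mapped by the authors to the mouse transcriptome using Bowtie2, and RSEM gave an estimate per gene; the submitters' processing notes name the build mm9, and tool versions are not given in the sources used here. The deposited values are these estimated counts, given as whole numbers with no normalization. Reads that fit several transcripts are split between them by RSEM, which leaves close paralogs uncertain. Libraries are identified by group only, because the numbers in their names are in no label, and 3 columns of values whose names match no group were not used. Nothing says whether counts of paired-end and single-end runs were summed.

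The counts were fitted with edgeR 4.0.16 (R 4.3.3): genes kept by filterByExpr (minimum count 10), TMM scaling, and a robust quasi-likelihood fit of all 9 adipocyte libraries (LFD, HFD and SW) without covariates, with Benjamini-Hochberg adjusted p under 0.05. Libraries held 6142895 to 23725647 counts, and replicates differed by more than counting noise (chi-square per degree of freedom 17.1 to 42.1). SVC and adipocytes of SW mice (3 libraries each) were fitted alike. Errors are standard errors of log2 fold changes. Transcript length and GC content were taken from the longest GENCODE M21 transcript, found for 99% of genes tested. The fit was also run on simulated counts in which 200 genes were changed. That is far fewer than passed in the data, and no length or GC trend was simulated, so the run cannot speak to those features.

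Members, the 44 gene lists (905 genes) and motifs were chosen with earlier results of these data known. Lists can share members, which are then counted in each, so lists that move together are not separate results. Named genes are the 10 largest rises and 10 largest falls (average log2 CPM 5 or more, groups not overlapping, symbol of 1 identifier, no predicted name, no group at 0, no V-ATPase subunit), genes marked beforehand in the lists, and per list the called member of largest change with an average log2 CPM of 3 or more. Some genes that this rule names are not reported here. Exceptions of 5 or fewer were named after their values were seen. Alternatives were DESeq2 1.42.0, limma-voom 3.58.1, other scaling factors and filters, thinning, the 6 libraries alone and leaving out each library; scaling on adipocyte-side genes and removal of length and GC trends were added after seeing the data. Python 3.11.15 and matplotlib 3.10.9 drew the plots.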

Additional observations from a re-analysis of the deposited data

How the results depend on the processing

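Numbers of genes past the threshold stayed within 1.5 times those reported under DESeq2, limma-voom, RLE and upper-quartile factors, no filter, thinning to the smallest library, the 6 libraries alone, and removal of length or GC trends. With genes of an average log2 CPM of at least 5 alone, 5332 genes were tested and 3050 passed, 1572 higher and 1478 lower. Under scaling on adipocyte-side genes 2373 were lower. Without 1 library, 5757 to 7250 passed, 3090 to 3792 higher and 2667 to 3458 lower. At a log2 difference of 1 the fractions gave 3966 SVC-side and 4264 adipocyte-side genes; without 1 library they gave 1686 to 2389 and 1794 to 2543. Of 128 named genes past the threshold, 117 kept their call without any 1 library, and 6 of 32 others gained one; no called value changed its sign under any alternative run. The low depth of LFD a and LFD c limits genes of low level. No paired analysis was possible because the columns carry numbers that no label gives and that no 2 groups share.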

Other observations

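Of the genes tested, 35 were at 0 in every library of a group, 15 in HFD and 20 in LFD, while the other group could be well covered. Sowahc measured 70.6 and 83.6 CPM in LFD b and LFD c and 0 in LFD a and all HFD libraries. Vps13d measured 5.71, 7.27 and 6.86 CPM in LFD libraries and 0 in HFD libraries. The predicted genes Gm7336, Gm10359 and Gm12671 held the same value in each library, 33.8, 41.5 and 27.1 CPM in HFD and 0 in LFD libraries. These genes were chosen after their values were seen, and no fold change is given for them.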
